A study of Homo sapiens with 6 samples.

Results

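All 598 peaks of a Flag-RBMX precipitation were compared with all 527 peaks of a Flag-RPA1 precipitation, 1125 peaks in all, from the precipitations that the labels number 2. They are 2 of the 6 samples of the series, and the input libraries of the same number served as controls in peak calling, so 4 samples entered. Both groups were 293T cells, an established human embryonic kidney line, transfected with a Flag-tagged construct of 1 of the proteins, either RBMX or RPA1, and both were kept for 24 hours in camptothecin, which traps topoisomerase I on DNA. Chromatin was sonicated and collected on Flag beads, so the tagged protein was precipitated and not the endogenous one. Untreated cells and cells without a Flag construct were not analysed here. Association of RBMX with repeated sequences alongside RPA is the subject in the series title, and the comparison asks where the proteins' levels, peak shapes and positions were alike and where they differed.

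The heterogeneous nuclear ribonucleoprotein RBMX binds RNA and is known for roles in splicing and in genome stability. RPA1 forms, as its largest subunit, the trimeric replication protein A, which coats single-stranded DNA during replication and repair and there serves as a platform for the checkpoint kinase ATR. Repeated DNA, including satellites near centromeres, ribosomal RNA genes, macrosatellites and telomeres, is known as difficult to replicate, and camptothecin adds breaks at replication forks.

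Each protein had 1 library, so no test between the proteins was possible, and no p-value is given. The labels do not say whether the cells of the libraries were handled together. A peak's level is the number of sequence tags stacked at its summit, given in tags per 1000000 library tags (RPM). The libraries had 6664290 tags for RBMX and 6889249 for RPA1. Intervals of a single ratio or of a share are exact 95% intervals that cover counting error only. Those beside a median are 95% rank intervals that describe the spread of pairs and treat pairs as separate units, copies included. Where pairs are few, as at the chromosome tips, they are the lowest and the highest pair. A pair is an RBMX and an RPA1 peak that share at least 1 bp, and its ratio is RBMX over RPA1 in RPM.

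A few of the sequences under these peaks stand in the reference tables, and those shown are examples at loci of the comparison. Sequence of the gene-free stretches and unplaced sequence, where most pairs lay, was not used here. The first line gives the 250 bases before the annotated start of EEF1A1, which encodes a translation elongation factor, at chr6:73521033-73521282 on the minus strand. Capitals mark the 225 bases under the peaks of both proteins.
EEF1A1: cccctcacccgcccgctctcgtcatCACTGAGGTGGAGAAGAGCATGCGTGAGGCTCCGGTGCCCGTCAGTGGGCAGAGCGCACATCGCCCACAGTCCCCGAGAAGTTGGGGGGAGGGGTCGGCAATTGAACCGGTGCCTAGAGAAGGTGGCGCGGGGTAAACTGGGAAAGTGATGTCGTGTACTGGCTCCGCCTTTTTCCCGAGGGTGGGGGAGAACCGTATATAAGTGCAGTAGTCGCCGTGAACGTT
The next lines give microRNA hairpins that fell under peaks of both proteins, MIR8078 at chr18:112256-112339 on the minus strand and MIR6724-4 at chr21:8432530-8432621 on the plus strand, ahead of a 45S ribosomal RNA gene. Capitals mark bases under the peaks of both.
MIR8078: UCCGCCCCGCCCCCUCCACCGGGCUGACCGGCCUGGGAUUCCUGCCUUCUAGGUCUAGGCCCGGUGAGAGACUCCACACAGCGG
MIR6724-4: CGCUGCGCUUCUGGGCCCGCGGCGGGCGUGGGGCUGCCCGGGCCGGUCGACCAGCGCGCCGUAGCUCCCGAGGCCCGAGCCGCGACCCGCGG
The last lines give hairpins under peaks of RBMX alone. MIR12136 is at chr1:632615-632685 on the minus strand, under a peak that also overlapped the mitochondrial pseudogene MTCO1P12. MIR10396B is at chr21:8436324-8436374 on the plus strand, inside a 45S gene. Capitals mark bases under the RBMX peak.
MIR12136: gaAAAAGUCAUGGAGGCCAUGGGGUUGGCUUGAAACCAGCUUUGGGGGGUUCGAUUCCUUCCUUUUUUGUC
MIR10396B: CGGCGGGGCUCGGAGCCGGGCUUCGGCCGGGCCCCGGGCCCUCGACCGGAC
All of these are RefSeq reference sequence of GRCh38.p14. The EEF1A1 stretch has a GC content of 61.6%, against a median of 58% over the 35116 upstream stretches of 250 bases in the table. The stretch before EEF1A1 had 299 RBMX and 244 RPA1 tags at the summits of its peaks. MIR8078 lay under summits of 36 and 36 tags and MIR6724-4 under 19 and 24. MIR12136 lay under an RBMX summit of 23 tags and MIR10396B under one of 15. The hairpin peaks measure DNA at these loci and say nothing of the microRNAs' levels.

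The peaks formed 482 pairs, made by 456 RBMX and 461 RPA1 peaks, and 398 of the pairs joined 1 peak of each list. The other 84 pairs lay in 37 regions in which one list split what the other joined. Merged, the lists gave 643 regions, of which 435 held both proteins, 142 RBMX alone and 66 RPA1 alone.

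The levels of the proteins ran closely together over a wide range. The one-to-one pairs had a median ratio of 0.905 (interval 0.877 to 0.919, n = 398 pairs), the middle 50% of pairs lay between 0.781 and 1.03, and 115 of the 398 pairs (28.9%) were above 1. The direction of that median depends on the scaling: with the pileup as deposited, which was scaled to each input's depth, the same pairs had a median of 1.23, and with the deposited fold enrichment 1.12. These scalings shift every pair nearly alike, by 0.45 and 0.30 on the log2 scale over all pairs, so loci are also described relative to the median pair, which the scaling hardly moves.

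**Figure D1:**
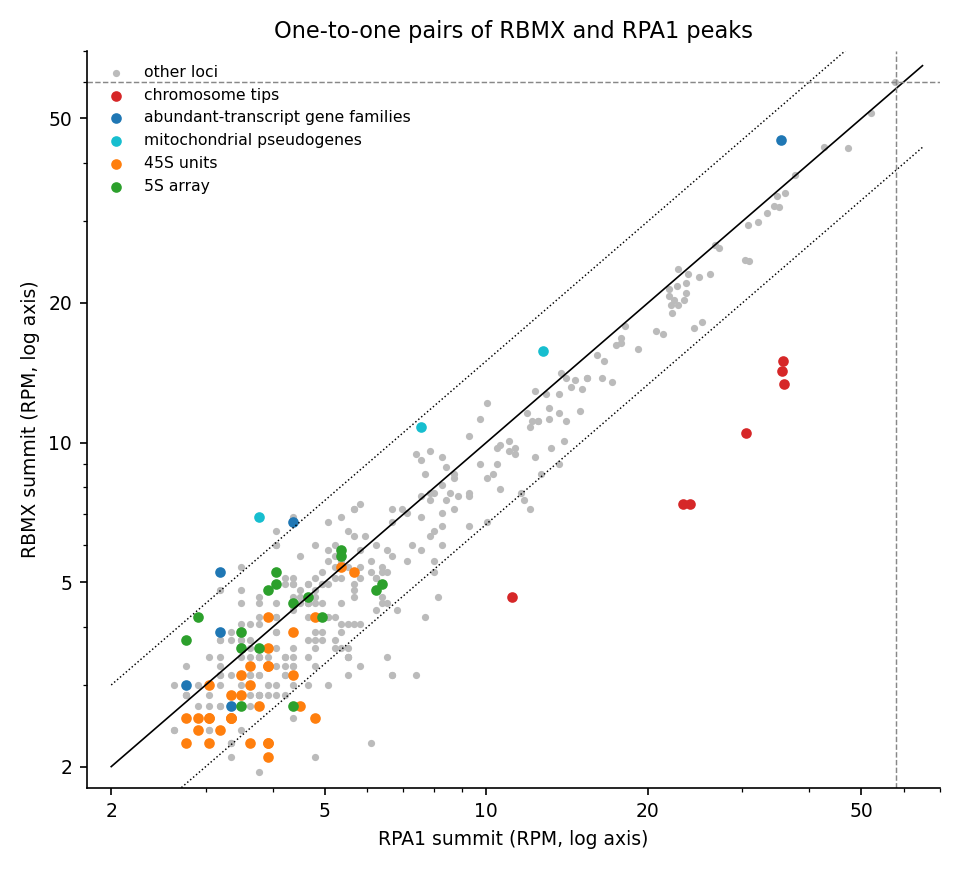
Summit level of RPA1 (x) and RBMX (y) in tags per 1000000 (RPM) on log axes for the 398 one-to-one pairs, coloured by locus. The solid line marks equal levels, dotted lines 1.5-fold in either direction and dashed lines the highest level the caller allows; the 7 chromosome tips lie apart on the RPA1 side, with ratios of 0.307 to 0.420.

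Few pairs passed 1.5-fold. Among one-to-one pairs RBMX was past it in 7 (1.76% of 398) and RPA1 in 38 (9.55%), and after division by the median ratio the counts were 13 (3.27%) and 26 (6.53%). Over all 482 pairs the counts were 13 for RBMX (2.7%) and 55 for RPA1 (11.4%), and with the deposited pileup the split turned over, to 78 and 19. The pairs just inside the limit had 32 against 22 tags on the RBMX side, a ratio of 1.504, and 16 against 25 on the RPA1 side, a ratio of 0.662. Just outside it were 40 against 28 tags, a ratio of 1.48, and 24 against 37, a ratio of 0.671. The counting interval of the ratio held the median ratio in 374 of 391 one-to-one pairs away from the chromosome tips (95.7%) and in 0 of the 7 pairs at the tips.

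The pair with most tags of both lists lay at chr3:93470310-93470849, in a gene-free stretch, with 399 RBMX and 398 RPA1 tags and a ratio of 1.04 (0.900 to 1.19). The caller kept 1 tag per position and strand and extended tags to 200 bp, so no summit can pass 400 tags, and this pair stood at that ceiling in both lists. Ratios of the strongest pairs are pulled toward 1 by this construction. Summits past 50% of the ceiling numbered 15 for RBMX and 23 for RPA1.

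Among one-to-one pairs, chromosome tips had the lowest median ratio of any locus. A tip is a region that starts within 20 kb of a chromosome's first base or beyond its last annotated gene, where the build ends in or near telomere repeats. The 7 tip pairs had a median ratio of 0.372 (0.307 to 0.420), and every one was past 1.5-fold for RPA1, against 9.55% of all one-to-one pairs. The start of chromosome 10 had 49 RBMX against 165 RPA1 tags (ratio 0.307, 0.218 to 0.425). The end of chromosome 18 had 49 against 160 tags (0.317, 0.225 to 0.438). At both, RPA1 stood far above RBMX, although RBMX too was above its list's median of 26 tags.

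The start of chromosome 5 had 70 against 210 tags (0.345, 0.259 to 0.454), over widths of 1741 and 1812 bp. The end of chromosome 22 had 31 against 77 tags (0.416, 0.265 to 0.639), and that of chromosome 12 had 100 against 246 (0.420, 0.330 to 0.532). The ends of X and Y are copies of one another in the pseudoautosomal region and had 95 against 245 tags (0.401) and 89 against 247 (0.372), so they are not separate sites. No tip interval reached the median ratio, and the RPA1 peak was the wider one in all 7 pairs. Summits nonetheless lay within 50 bp of one another in 6 of the 7 pairs, with a median distance of 15 bp over all 7. Those at the start of chromosome 5 were 465 bp apart.

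A further 4 tips were held by RPA1 alone and 0 by RBMX alone. These RPA1 summits had 50 tags at the end of chromosome 1, 42 at the end of chromosome 13, 30 at the start of chromosome 3 and 28 at the start of chromosome 12. The first had most tags of all 66 RPA1 peaks without a partner, and the second tied with a peak on unlocalized sequence for the next place. Without a partner were thus 4 of the 11 RPA1 peaks at tips (36.4%, 10.9% to 69.2%, against 12.5% of all RPA1 peaks). Of the 7 RBMX peaks at tips 0 were (0% to 41.0%, against 23.7% of all RBMX peaks). Each interval holds the share over all loci. The tilt held under either deposited scaling, at a median of 0.507 for the pileup and 0.467 for the fold. Relative to the median pair it was 0.411, 0.411 and 0.417 as reported and under these scalings. Corrected for the ceiling it was 0.306.

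Inward from the tips the ratios were near the median pair. The other 9 pairs in the outermost 500 kb of a chromosome had a median ratio of 0.940 and ran from 0.426 to 1.13. The lowest, 21 against 51 tags at chr4:190122845-190123048 (0.243 to 0.720), lay ahead of the DUX4 array. ROCK1P1 on chromosome 18, a partial copy of the kinase gene ROCK1, held the strongest, with 164 against 213 tags (0.796, 0.645 to 0.980). Its further pairs had 77 against 82 tags (0.971) and, over MIR8078, 36 against 36.

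**Figure D2:**
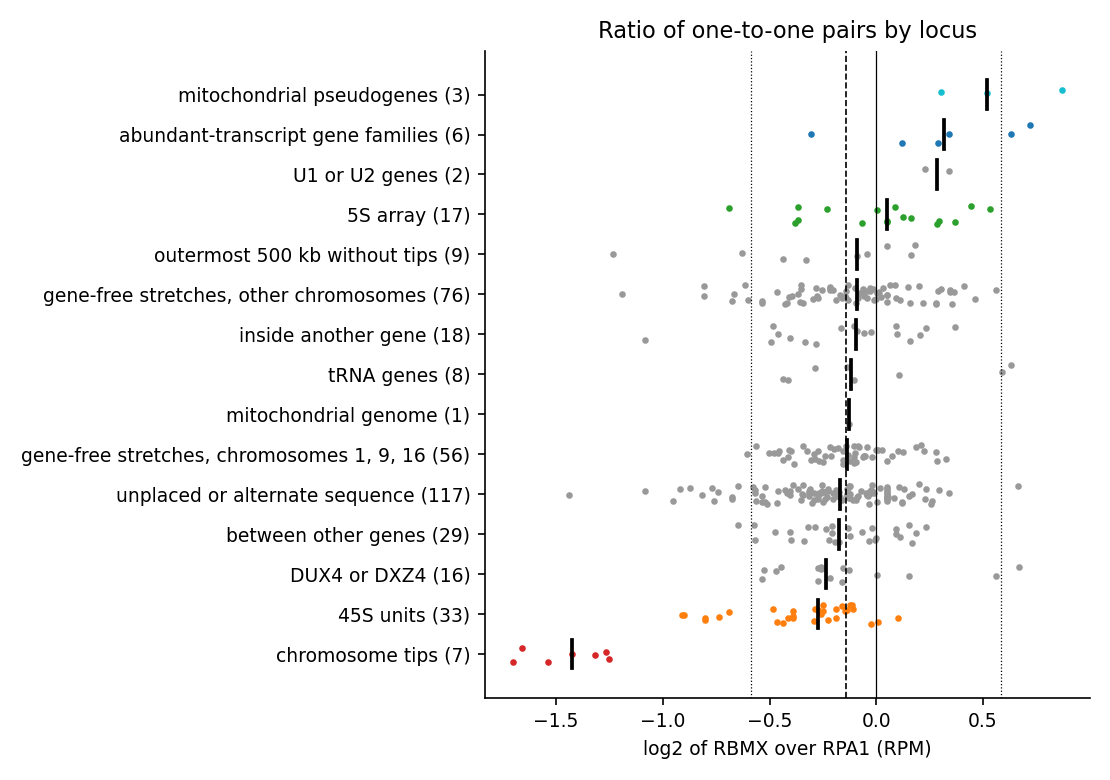
log2 of the RBMX to RPA1 ratio (x, of RPM values) of each one-to-one pair by locus (y, number of pairs in parentheses), with thick bars at the medians. The dashed line is the median of all pairs at a ratio of 0.905, dotted lines are 1.5-fold; only the chromosome tips have every pair past a dotted line.

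A list of genes of highly abundant transcripts and their processed copies held 19 regions with a peak, 6 of both proteins and 13 of RBMX alone. The list comprised genes and pseudogenes of ribosomal proteins, EEF1A1, actin beta, GAPDH and ferritin, 2284 annotated entries of which 2170 are pseudogenes. It had 6 one-to-one pairs, with a median ratio of 1.24 (0.809 to 1.64) and 5 of 6 above 1, against 28.9% of all one-to-one pairs. The interval of this median holds that of all pairs. Relative to the median pair, the median of these pairs was 1.37, and it ran from 1.36 to 1.55 under the alternatives tried.

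EEF1A1 had 299 RBMX and 244 RPA1 tags (1.27, 1.07 to 1.51). Its RBMX peak ran from 237 bases before the annotated start to 1009 after it, and the RPA1 peak from 225 before to 992 after. The summits lay 507 and 544 bases inside the gene, beyond the upstream bases printed above. This was the only pair of the list whose interval excluded 1.

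GAPDH, a glycolytic enzyme's gene, had 35 against 22 tags (1.64, 0.938 to 2.94). FTH1, which encodes the ferritin heavy chain, had 45 against 30 (1.55, 0.956 to 2.55). ACTB had 20 against 19 (1.09), EEF1A1P5 26 against 22 (1.22) and RPL13AP5 18 against 23 (0.809). The RBMX peak was the wider in 5 of these 6 pairs. The intervals outside EEF1A1 are broad.

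Of the list's 19 RBMX peaks, 13 had no partner (68.4%, against 23.7% of all RBMX peaks), and of its 6 RPA1 peaks 0 were without one (against 12.5%). The 13 were 8 at ribosomal protein pseudogenes, 4 at ferritin genes or pseudogenes and 1 at GAPDHP1, with 16 to 25 tags. RPL3P4, with 25 tags, and RPL13P12, with 24, were those past 1.5-fold over the smallest RPA1 peak. The other 11 were closer to that level, so a lower RPA1 summit there could go uncalled. Processed pseudogenes share sequence with their parent genes, and how the authors placed tags that match several copies is not given in the sources used here.

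With the macrosatellites DUX4 and DXZ4 pooled, nuclear copies of mitochondrial genes had the highest median ratio of any locus, 1.43 over 3 pairs. The 3 DXZ4 pairs alone had a median of 1.48. The mitochondrial copies form a block at the start of chromosome 1 and all 3 of their pairs were above 1. MTCO1P12 had 46 against 26 tags (1.83, 1.11 to 3.08), the highest ratio of any one-to-one pair. MTND2P28 had 72 against 52 (1.43, 0.988 to 2.09) and MTATP6P1 105 against 88 (1.23, 0.920 to 1.66). Another 2 RBMX peaks that overlapped MTCO1P12, with 23 and 20 tags, had no RPA1 partner, and the former also overlapped MIR12136.

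The mitochondrial genome itself was 1 peak over all 16569 bp in each list, with 288 RBMX and 325 RPA1 tags (0.916, 0.779 to 1.08), which is near the median pair. Its summits lay 1260 bp apart, the largest distance of any one-to-one pair. With a peak this long, the summit is a single position of a broad plateau.

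The 45S ribosomal RNA units lay slightly to the RPA1 side of the median pair. These units encode the precursor of the 18S, 5.8S and 28S RNAs, and the loci taken lay within 50 kb of RNA45SN1, RNA45SN2 and RNA45SN3 on chromosome 21. Their 33 one-to-one pairs had a median ratio of 0.827 (0.764 to 0.877), and 2 of 33 were above 1, against 28.9% of all. Under the deposited pileup the median was 1.13 and under the deposited fold 1.02, while relative to the median pair it was 0.913, 0.914 and 0.915. Past 1.5-fold for RPA1 were 6 of the 33, against 9.55% of all, and 0 for RBMX, against 1.76%. Among all pairs, split ones included, the strongest was a split pair at chr21:8233610-8235047, with 35 against 57 tags (0.635, 0.404 to 0.984) over widths of 1438 and 1786 bp.

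The ratios of one-to-one pairs hardly differed between parts of the unit, with a median of 0.868 (0.738 to 1.01) inside the 45S genes and 0.827 (0.724 to 0.854) around them, while peak counts did. Inside the 45S genes RBMX had 20 peaks and RPA1 13, whereas in the sequence around them RBMX had 43 and RPA1 58. Without a partner were 14 of the 63 RBMX peaks (22.2%, against 23.7% of all) and 23 of the 71 RPA1 peaks (32.4%, against 12.5% of all). Of these, 8 of the 14 RBMX peaks lay inside a 45S gene, against 20 of all 63 RBMX peaks there. Outside lay 21 of the 23 RPA1 peaks, against 58 of all 71. The RBMX peaks without a partner had 15 to 21 tags, none of them past 1.5-fold over the smallest RPA1 peak, and the RPA1 ones 16 to 30. Every one of both sets lay within 5 kb of a peak of the other list. The 3 annotated units are copies, so equal counts across them are not independent.

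The 5S array lay on the RBMX side of the median pair, with an interval that holds it. The 5S RNA is the ribosomal RNA that RNA polymerase III makes from a tandem array on chromosome 1. Its 17 one-to-one pairs had a median ratio of 1.03 (0.851 to 1.22), 1.14 relative to the median pair, with 11 of 17 above 1, against 28.9% of all. Among all pairs, split ones included, the one with most tags was a split pair over RNA5S14, with 37 against 48 tags (0.797, 0.505 to 1.249). RBMX had 23 peaks there and RPA1 29, since RBMX signal was joined into longer peaks: median widths were 750 and 578 bp. The longest, 8510 bp at chr1:228608534-228617043, spanned RNA5S1 to RNA5S4 and met several RPA1 peaks of 279 to 2360 bp. It gave the largest summit distances of all pairs, 7386, 5884 and 4501 bp, because each list reports 1 summit per peak.

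At the tRNA gene cluster of chromosome 1, RBMX had 18 peaks and RPA1 11. The 8 one-to-one pairs had a median ratio of 0.920 (0.738 to 1.55). Past 1.5-fold for RBMX were 2 of the 8, against 1.76% of all one-to-one pairs. TRG-GCC1-2, a glycine tRNA gene, had 36 against 24 tags (1.55, 0.900 to 2.72). The pair over TRG-GCC1-4 had 32 against 22 (1.504, 0.847 to 2.72). Both intervals held the median pair. Of the 18 RBMX peaks, 9 had no partner (50%, against 23.7% of all), with 14 to 26 tags, and all 9 lay within 5 kb of an RPA1 peak. The 1 RPA1 peak without a partner, over TRG-TCC2-5, had 27 tags and lay 33 bp from an RBMX peak.

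The genes of the spliceosomal small nuclear RNAs U1 and U2 gave only 2 pairs, both at the U2 array of chromosome 17. They had 38 against 31 tags (1.27, 0.768 to 2.11) and 34 against 30 (1.17, 0.696 to 1.98). Another 3 of the 5 RBMX peaks there, with 32, 17 and 17 tags, had no partner (60%, 14.7% to 94.7%). That interval holds the 23.7% of all RBMX peaks. Of the 2 RPA1 peaks at these genes, 0 were without a partner, against 12.5% of all.

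The macrosatellites DUX4 and DXZ4 fell on different sides of the median pair. DUX4, whose arrays lie on chromosomes 4 and 10 with relatives on 3 and Y, encodes a transcription factor of the early embryo. Its 13 pairs had a median ratio of 0.835, with 1 of 13 above 1. The strongest, over DUX4 at chr4:190179160-190180002, had 140 against 162 tags (0.893, 0.707 to 1.13). The 5 pairs that the alignment placed on chromosome Y ran from 0.689 to 0.861. How tags that match several copies were placed is not given in the sources used here, so these pairs need not come from a Y chromosome. DXZ4, an array of the X chromosome that carries the transcripts DANT1 and DANT2, had 3 pairs, with 43 against 28 tags (1.59, 0.964 to 2.65), 40 against 28 (1.48, 0.889 to 2.49) and 33 against 34 (1.003, 0.602 to 1.67). All 16 macrosatellite pairs had summits within 50 bp. Each DXZ4 interval reached down to ratios found in the DUX4 family.

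Gene-free stretches of at least 1 Mb, among which are the centromeres and heterochromatin blocks, held the strongest pairs of both lists. The class set for chromosomes 1, 9 and 16 held peaks on 1 and 16 and none on 9. Its 56 pairs had a median ratio of 0.910 (0.861 to 0.942), close to the median of all pairs, and 1 of 56 was past 1.5-fold, for RPA1, against 9.55% of all. The strongest there, at chr1:125178798-125180762, had 342 against 359 tags (0.985, 0.847 to 1.15) over 1965 and 1975 bp. On the other chromosomes the 76 pairs had a median of 0.938 (0.877 to 0.991), and 7 of 76 were past the fold, all for RPA1, near the 9.55% of all.

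Among the 5 highest and 5 lowest ratios over all 482 pairs whose interval excluded 1, those outside the tips, EEF1A1 and MTCO1P12 came from split peaks in these stretches. At chr1:143212431-143213412 an RBMX summit of 252 tags was set against an RPA1 peak of 227 bp with 47, a ratio of 5.54 (4.05 to 7.74). The RBMX peaks at chr1:143232372-143233689 and chr1:143219614-143221167 gave 3.49 and 2.14 in the same way. In the opposite sense, RBMX peaks at chr16:46391725-46392140, chr5:49644567-49645110 and chr1:143240158-143240495 gave 0.139, 0.293 and 0.323 against longer RPA1 peaks. Summits of these pairs were 611 to 1356 bp apart. Where the strongest summit of each merged region was taken instead, ratios ran from 0.307 to 1.83, and 7 regions were past 1.5-fold for RBMX and 42 for RPA1. None of the split pairs' ratios named here remained at that level.

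Unplaced and alternate sequence held 117 one-to-one pairs with a median ratio of 0.890 (0.846 to 0.919). Genes were not assigned on these sequences, so any copies of the loci named above were not separated there. The strongest, on KI270438v1, had 165 against 209 tags (0.816, 0.661 to 1.01). Past 1.5-fold were 12 of the 117 for RPA1 and 1 for RBMX, near the 9.55% and 1.76% of all pairs. The lowest ratio, 0.369 (0.190 to 0.680), was on KI270733v1, with 15 against 42 tags. RBMX had peaks on all 30 such sequences that held any peak and RPA1 on 24 of them. The 6 with RBMX only held 1 peak each, of 16 to 21 tags. None of these peaks was past 1.5-fold over the smallest RPA1 peak.

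The remaining loci lay close to the median pair. Pairs inside other genes numbered 18, with a median ratio of 0.935 (0.755 to 1.07), and the strongest lay in TMEM242, with 69 against 64 tags (1.11, 0.782 to 1.59). SERINC2 had the lowest, 21 against 46 tags (0.472, 0.268 to 0.807). Pairs between genes numbered 29, with a median of 0.886 (0.820 to 0.995). The strongest, at chr16:34582084-34583894, had 227 against 240 tags (0.978, 0.812 to 1.18), with summits 404 bp apart.

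Widths and positions of paired peaks nearly coincided. One-to-one pairs had median widths of 385.5 bp for RBMX and 397.5 bp for RPA1 and a median width ratio of 1.01 (1 to 1.03). RBMX was the wider in 212 pairs and RPA1 in 178. Left boundaries lay a median of 22 bp apart and right boundaries 21 bp. The median width ratio farthest from 1 among the loci of 10 or more pairs was 0.894 (0.683 to 1.05), at the 45S units. RPA1 peaks were the wider in 21 of the 33 pairs there. The interval holds the median width ratio of all one-to-one pairs.

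Summits lay a median of 26 bp apart (23 to 30), and 279 of the 398 were within 50 bp. The signed shift had a median of 3 bp (-2 to 7), so over all pairs neither protein's summit lay to one side. At 2 loci the RBMX summit lay toward higher coordinates: by a median of 49 bp (7 to 134) at the 45S units, and at the tRNA genes in all 8 pairs, by 14 to 335 bp with a median of 79. The distance fell with the number of tags: from the lowest to the highest quartile of summed tags its median was 82, 25.5, 23 and 12 bp. By locus, the median was 13 bp in the gene-free stretches of chromosomes 1 and 16 and 88 bp at the 45S units. Summits over 200 bp apart occurred in 43 of the 398 pairs. They made up 12 of the 33 pairs at the 45S units and 14 of the 117 on unplaced sequence, the latter near the share over all pairs. These pairs had a median of 48 summed tags, against 68 in the others. Their peaks were wider for both proteins, with medians of 549 bp against 357 bp for RBMX and 527 bp against 377 bp for RPA1.

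**Figure D3:**
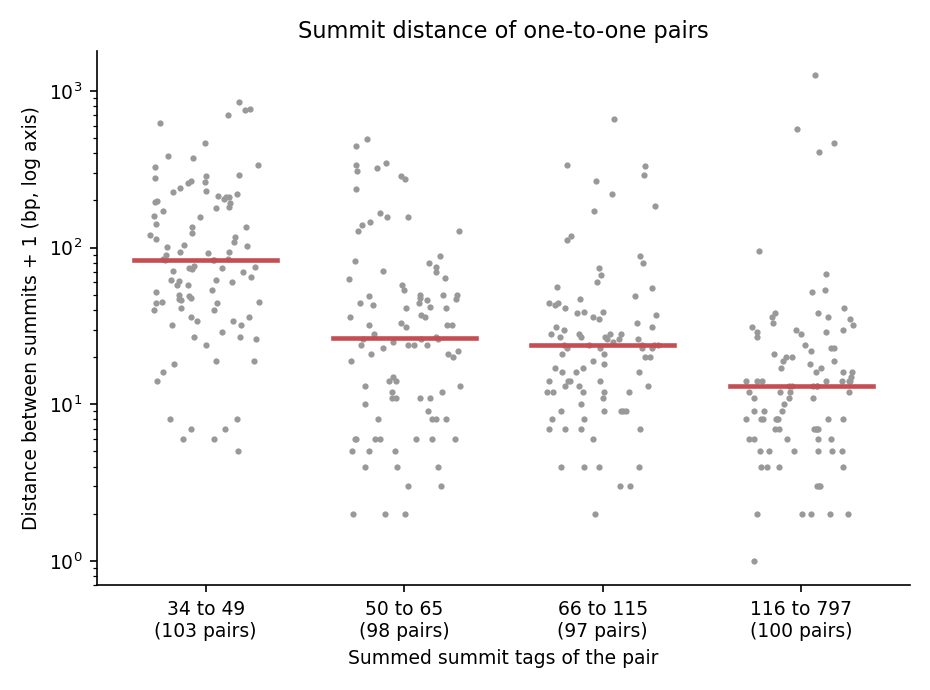
Distance between RBMX and RPA1 summits plus 1 (y, bp, log axis) in the 398 one-to-one pairs, by quartile of summed summit tags (x); points are pairs and red bars medians. The median fell from 82 to 12 bp between the lowest and the highest quartile.

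Peaks without a partner were mostly low ones. The 142 RBMX peaks had a median of 20 tags, against 30.5 in the 456 with a partner, and the 66 RPA1 peaks a median of 24.5 against 34 in the 461. With the local background off, the lowest level in a list was nearly a fixed number of tags: the smallest summit was 13 for RBMX, or 1.95 RPM, and 16 for RPA1, or 2.32 RPM. Of the RBMX peaks without a partner, 17 were below the smallest RPA1 peak in RPM, a level at which RPA1 had no peak anywhere. With both lists held to that level, RBMX kept 565 peaks, 125 of them without a partner, and RPA1 kept its 527, 66 of them without one.

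**Figure D4:**
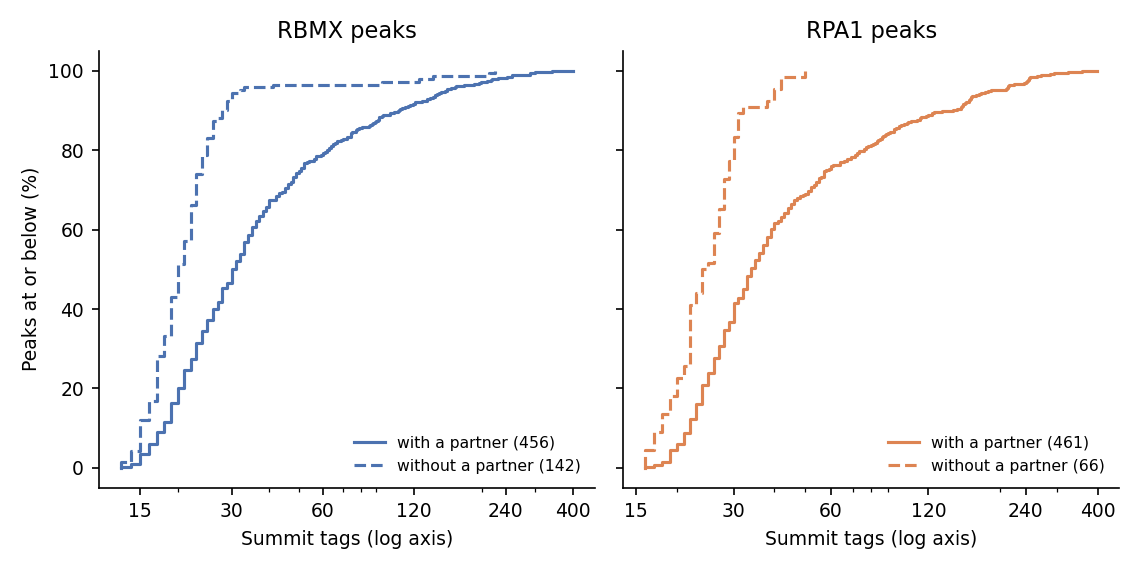
Share of peaks at or below a summit tag count (y, percent; x, tags, log axis) for RBMX (left) and RPA1 (right), with a partner (solid) and without (dashed). Peaks without a partner are shifted to lower counts; the step near 200 RBMX tags belongs to the peaks at RBMX and its copies.

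Past 1.5-fold over the smallest peak of the other list were 37 of the 142 RBMX peaks (26.1%) and 51 of the 66 RPA1 peaks (77.3%), and with the deposited pileup 102 and 23. Among peaks with a partner, 313 of 456 for RBMX and 433 of 461 for RPA1 passed the same line in RPM. In both lists, peaks without a partner thus passed it less often. These counts depend on the smallest level of the other list, which was lower for RBMX. Over 3-fold were 5 RBMX and 3 RPA1 peaks. Within 10 kb of a peak of the other list lay 71 of the RBMX and 51 of the RPA1 peaks without a partner. The caller reports no region under 200 bp, so a shorter signal of the other protein at these places is not in its list.

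**Figure D5:**
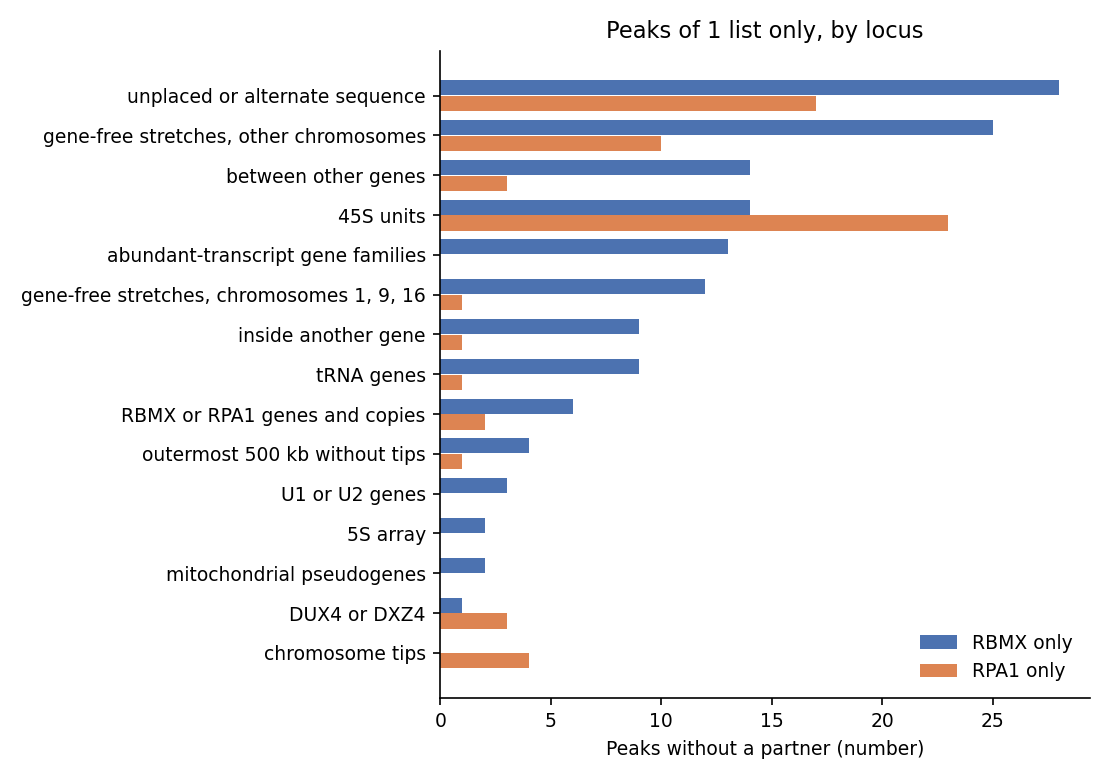
Number of peaks without a partner (x) by locus (y) for RBMX and RPA1. RBMX alone has such peaks at the abundant-transcript families (13 of 19 peaks against 0 of 6). It also does at the 5S array, the U1 or U2 genes and the mitochondrial pseudogenes. RPA1 alone has them at chromosome tips (4 of 11 peaks against 0 of 7). RPA1 exceeds RBMX at the 45S units (23 of 71 peaks against 14 of 63). Over all loci the shares are 23.7% for RBMX and 12.5% for RPA1.

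The highest RBMX peaks without a partner lay on RBMX and its copies, and 2 of the 6 highest RPA1 ones on RPA1. The RBMX peaks without a partner that had most tags were 221 at RBMXL1, a retrocopy of RBMX within KYAT3 (chr1:88982817-88983855), 211 at RBMX itself (chrX:136874090-136874474), 138 and 94 at the pseudogene RBMXP2 and 124 at RBMXP5. These 5 were the only RBMX peaks over 3-fold. RBMXP4 had 41 tags. RPA1 had 0 peaks at any of them. In turn, the RPA1 list had peaks of 40 tags (chr17:1888652-1888868) and 38 tags (chr17:1879207-1879707) over RPA1, where RBMX had 0. Each set appeared in the library of cells that carried the Flag construct of that gene, and whether the tags come from the construct was not tested.

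Away from these genes and the tips, the RPA1 peaks without a partner with most tags were 42 on GL000225v1 and 40 at chr4:50830524-50830775, in a gene-free stretch. Over all loci, 23.7% of RBMX and 12.5% of RPA1 peaks had no partner. The gene-free stretches of chromosomes 1 and 16 held 12 such peaks of 76 for RBMX (15.8%) and 1 of 67 for RPA1 (1.49%). Those of other chromosomes held 25 of 106 (23.6%) and 10 of 90 (11.1%), and unplaced sequence 28 of 166 (16.9%) and 17 of 151 (11.3%). Inside other genes 9 of 27 RBMX peaks (33.3%, 16.5% to 54.0%) and 1 of 19 RPA1 peaks had no partner, and between genes 14 of 46 (30.4%, 17.7% to 45.8%) and 3 of 35. The RBMX intervals of these last classes hold the share over all loci. The RBMX ones in genes included TBC1D5, with 30 tags, and DOCK1, with 28. At the DUX4 family RPA1 had 3 such peaks of 28 to 30 tags, while the 1 RBMX peak, of 20 tags, lay at DXZ4.

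The input set 1 level for the whole genome in each list, and no peak was compared with the input at its own position. Copy number and mappability at repeated loci act on both precipitations, and their part in the shared peaks was not tested.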

How the data were processed

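Peaks were called by the authors per library with MACS2 2.2.4, with an input control, a p-value cutoff of 1e-12, 1 tag per position, an extension of 200 bp and the local background off, per the file headers; Bowtie2 and deepTools 3.4.1 are named in the submitters' processing notes, as is build hg38. The deposited signal is the pileup at the summit, scaled to the input's depth, and the deposited −log10 p and −log10 q are the caller's. The deposited fold enrichment is the ratio of the summit's pileup to 1 genome-wide background, each with 1 added. The other deposited column used was the peak length in bp. Dividing the pileup by the header's scale (0.959 for RBMX, 0.681 for RPA1) returned whole tags within 0.0073 of a tag; these were then expressed per 1000000 library tags (RPM). Inputs had 6393212 and 4693961 tags. Ratio intervals are exact conditional Clopper-Pearson intervals, and median intervals are distribution-free binomial ones, both at 95%.

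With 1 library per protein, no test was made, and called means past 1.5-fold. Gene positions are those of RefSeq, GRCh38.p14 (58998 used, 718 of unlocalized sequence dropped). The members and lists were chosen with earlier results of these data known. Named by rule were the pair of most tags per locus, the 5 highest and 5 lowest ratios among pairs whose interval excludes 1 and that have 30 or more summed tags, the 5 strongest peaks of each list without a partner, the 3 largest summit distances and width differences, and any peak over RBMX, RBMXL1 or RPA1; other named pairs and peaks were chosen after their values were seen. Loci were assigned by a fixed order of priority, with windows of 5 kb around tRNA, U1, U2 and DUX4 genes; tips are a subset of the outermost 500 kb, and the windows for DXZ4 and U2 were set after the data were seen. Python 3.11.15, pandas 2.3.3, NumPy 2.4.6, SciPy 1.17.1 and matplotlib 3.10.9 were used, and the pairing and intervals were tested on simulated data. Other overlaps, thresholds, scalings and pair sets were tried as alternatives. Peak sequences were not analysed here beyond the reference tables' promoters and hairpins.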

Additional observations from a re-analysis of the deposited data

How the results depend on the processing

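A required overlap of 50% of both peaks lowered the share of RBMX peaks with a partner from 76.3% to 65.7% and that of RPA1 peaks from 87.5% to 74.6%, moved the median summit distance from 31.5 to 25 bp over all pairs, left 6 pairs past 1.5-fold for RBMX and 36 for RPA1, and raised the peaks of 1 list past 1.5-fold to 64 and 107. Peaks with a −log10 p of 20 or more gave an RBMX share of 71.2% and 7 RBMX and 32 RPA1 peaks of 1 list past the fold. The median ratio over all pairs, 0.905, became 1.23 with the deposited pileup and 1.12 with the deposited fold. Those scalings gave 78 and 38 pairs past the fold for RBMX, 19 and 21 for RPA1, 102 and 81 RBMX peaks of 1 list past it, and 23 and 32 RPA1 ones. One-to-one pairs and, as an alternative chosen after seeing the data, merged regions left 7 past the fold for RBMX. Division by the median ratio, also added afterwards, gave 21 and 34. By locus, the median ratio crossed 1 with the deposited pileup and fold at the 45S units (1.13 and 1.02), the gene-free stretches of chromosomes 1 and 16 (1.24 and 1.13), those of other chromosomes (1.28 and 1.17) and unplaced sequence (1.21 and 1.10). Relative to the median pair, the alternatives ran from 0.306 to 0.417 at the tips, 0.912 to 0.939 at the 45S units, 1.13 to 1.17 at the 5S array and 1.57 to 1.67 at the mitochondrial pseudogenes. Of the alternatives for the 9 main results, 41 kept the value within its interval or within 1.5-fold, 22 moved it outside and 2 reversed its direction. Apart from the scalings and the definitions of a pair or peak, which differ by construction, the cause was not tested. Low counts limit single pairs: the interval of the ratio included 1 in 368 of 398 one-to-one pairs. No paired analysis was possible because each protein had 1 library here, and leaving out a replicate was likewise not possible.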
